A study of Mus musculus with 2 samples.

Results

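The fibrillar and type VI collagens are the structural proteins of loose connective tissue, and 10 of their chain genes were followed here in single adipocyte precursor cells: Col1a1 and Col1a2 (type I), Col3a1 (type III), Col5a1, Col5a2 and Col5a3 (type V), Col6a1, Col6a2 and Col6a3 (type VI) and Col14a1 (type XIV). The genes were taken by symbol from the 27998 genes of the count matrix, and all 10 were found. The cells were adipocyte precursors, fibroblast-like cells able to become fat cells, isolated by flow sorting from subcutaneous adipose tissue of wild-type mouse pups at 12 days of age. Pups were cross-fostered onto dams whose milk fat had a high or a low n-6/n-3 ratio of polyunsaturated fatty acids (PUFA), and each of these 2 conditions gave 1 sample of 3000 sorted cells, per the labels. The labels used here do not give how many pups each sample pooled, and the labels call the cells both fresh and cryopreserved and thawed. The libraries were made with 10x Genomics 3′ chemistry, in which a unique molecular identifier (UMI) marks each captured transcript near its 3′ end. A UMI counts 1 molecule whatever its length, so levels of different chains were compared without length scaling.

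Both libraries are joined in 1 matrix and parted only by the barcode suffix, and no label ties suffix 1 or 2 to a diet. They are called library 2 and library 1 here, and diets were not compared. Each condition has a single library, so no replicate check and no test exist: a class of cells is described by its summed UMIs scaled to 1000000 (CPM), with 95% intervals that cover counting error only, and by its value in each library. A gene is called higher or lower when 2 sums differ by at least 1.5-fold and at least 1 of them reaches 10 CPM. The share of all genes whose library values do not overlap between 2 classes was not counted. Statements on overlap below are therefore descriptions only. Library 2 had 3584 barcodes and 43491307 UMIs, and library 1 had 3321 barcodes and 42092816 UMIs. After filtering, 6885 cells remained, with a median of 12112.5 UMIs per cell in library 2 and 12962 in library 1. The libraries shared 17 barcode sequences, which were kept as separate cells.

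Collagen chains are made in the endoplasmic reticulum, where prolines and lysines are hydroxylated and chains wind into a helix that needs a glycine at the start of each Gly-X-Y triplet. Types I and III make the bulk of interstitial fibrils, type V starts fibrils and limits their width, type XIV sits on fibril surfaces, and type VI forms beaded microfibrils around cells. In adipose tissue, fibroblast-like precursors are a main source of these chains, and the C-terminal fragment of the type VI α3 chain, endotrophin, is known from mouse and human fat. As cells turn into adipocytes they exchange a fibrillar matrix for a basement membrane built on type IV collagen.

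The glycine repeat is legible in the coding sequences. GGN, the glycine codon, opened each triplet of codons over 338 successive triplets in Col1a1, 339 in Col1a2, 344 in Col3a1, 338 in Col5a1, 339 in Col5a2 and 337 in Col5a3. The same run was 87 triplets long in Col6a1 and in Col6a2, 45 in Col6a3 and 32 in Col14a1. It took up 74.1% of the Col1a2 coding sequence, against 4.11% of that of Col6a3, which has 3284 codons. The first 21 codons of this run are shown for 6 of the 10 chains as examples. They are from the GENCODE transcripts of GRCm38, 5′ to 3′, with each GGN codon that opens a triplet in capitals. The genomic spans include introns.
Col1a1, chr11:94939451-94939912, plus strand: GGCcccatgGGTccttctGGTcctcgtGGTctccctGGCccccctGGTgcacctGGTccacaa
Col1a2, chr6:4512406-4515489, plus strand: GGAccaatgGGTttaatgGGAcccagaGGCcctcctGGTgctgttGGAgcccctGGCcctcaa
Col3a1, chr1:45323762-45325386, plus strand: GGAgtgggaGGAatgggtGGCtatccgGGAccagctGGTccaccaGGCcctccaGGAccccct
Col6a1, chr10:76719650-76720996, minus strand: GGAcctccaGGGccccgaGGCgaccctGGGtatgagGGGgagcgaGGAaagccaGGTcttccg
Col6a3, chr1:90791951-90792445, minus strand: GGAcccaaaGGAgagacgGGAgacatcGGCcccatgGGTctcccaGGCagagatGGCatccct
Col14a1, chr15:55471708-55472980, plus strand: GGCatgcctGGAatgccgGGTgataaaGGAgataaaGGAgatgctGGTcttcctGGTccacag
CCN, the proline codon, made up 34.5% of the codons between the glycines over the whole run in Col1a1, 35.3% in Col3a1, 25.3% in Col6a1 and 24.4% in Col6a3. In the GENCODE annotation Col3a1 (chr1:45311538-45349706, plus strand) and Col5a2 (chr1:45374321-45503282, minus strand) neighbour each other, and so do Col6a1 (chr10:76708792-76726168) and Col6a2 (chr10:76595762-76623630), both on the minus strand. Col6a3 spans chr1:90765923-90843971 and Col14a1 spans chr15:55307750-55520803. No other annotated gene overlaps the last 1000 bases of any of the 10 genes, where 3′ reads fall.

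Cells were grouped by clusters built without the 96 genes of the collagen lists. Dpp4-type progenitor-like cells, named after a surface peptidase of early interstitial progenitors, filled 2 clusters with 3023 cells, in which 10 and 11 of 12 markers were raised. Committed preadipocyte-like cells (1344 cells, 10 of 12 markers raised) and F3-type stromal-like cells (362 cells, 7 of 8 markers raised) formed 1 cluster each, as did cycling-like cells (241 cells, 14 of 14 markers raised). Clusters 1 (622 cells, led by Smpd3), 2 (1102 cells, led by Cilp and the elastin gene Eln) and 9 (77 cells, led by Hist1h1c) met no rule for a name. The kept cells outside the lineage were macrophage-like (47), endothelial-like (49) or erythroid-like (18, all in library 1), which left 6771 precursors.

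Collagen UMIs were also found in cells that should lack them. Erythroid-like cells, which should make no collagen, held a mean of 205 UMIs of the 10 genes per cell (median 158.5), and macrophage-like cells held 383 (median 135), against 983 in precursors. Both means rest partly on a few cells, the highest of which held 1078 UMIs among erythroid-like and 2117 among macrophage-like cells. Per gene the erythroid-like mean ran from 17.8% of the precursor mean for Col1a1 to 35.1% for Col14a1. A single cell of the 18 held 36 of the 79 Col14a1 UMIs and 227 of the 790 Col1a1 UMIs. Without it the shares ran from 13.2% for Col5a2 to 21.6% for Col6a1, with Col14a1 at 20.2%, and the ratio of Col14a1 to Col1a1 UMIs was 0.0764 (95% exact interval 0.0547 to 0.104), against 0.0508 in precursors. A UMI of Col5a3 was seen in 93.5% of committed cells, 92.2% of Dpp4-type cells and 53.2% of macrophage-like cells, whose median depths were 11136, 13285 and 6832 UMIs. Thinning to 7470 UMIs per cell left out 314 cells of library 2 and 375 of library 1. After thinning these shares were 87.9%, 81.5% and 76.2% (Clopper-Pearson interval of the last, 52.8 to 91.8%). The 76.2% covers only the 21 of 47 macrophage-like cells that reached this depth. It is a share of the deeper cells and cannot be set against the 53.2%. Shares of cells with a UMI are therefore not used below.

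The type I and III transcripts were the most abundant of all in precursors. Col3a1 had the highest level of all 18345 genes detected in precursors, with 32576 CPM, followed by Col1a2 with 20397 CPM and Col1a1 with 19874 CPM. The other chains stood far lower: Col6a1 ranked 143rd with 1228 CPM, Col5a2 had 1117 CPM, Col6a2 1035 CPM, Col14a1 1009 CPM, Col5a1 981 CPM and Col6a3 859 CPM, and Col5a3 ranked 502nd with 271 CPM. Together the 10 genes took 7.93% of all precursor UMIs. Their share was 6.76% in committed cells, 9.01% in F3-type cells and 8.82% in Dpp4-type cells.

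**Figure D1:**
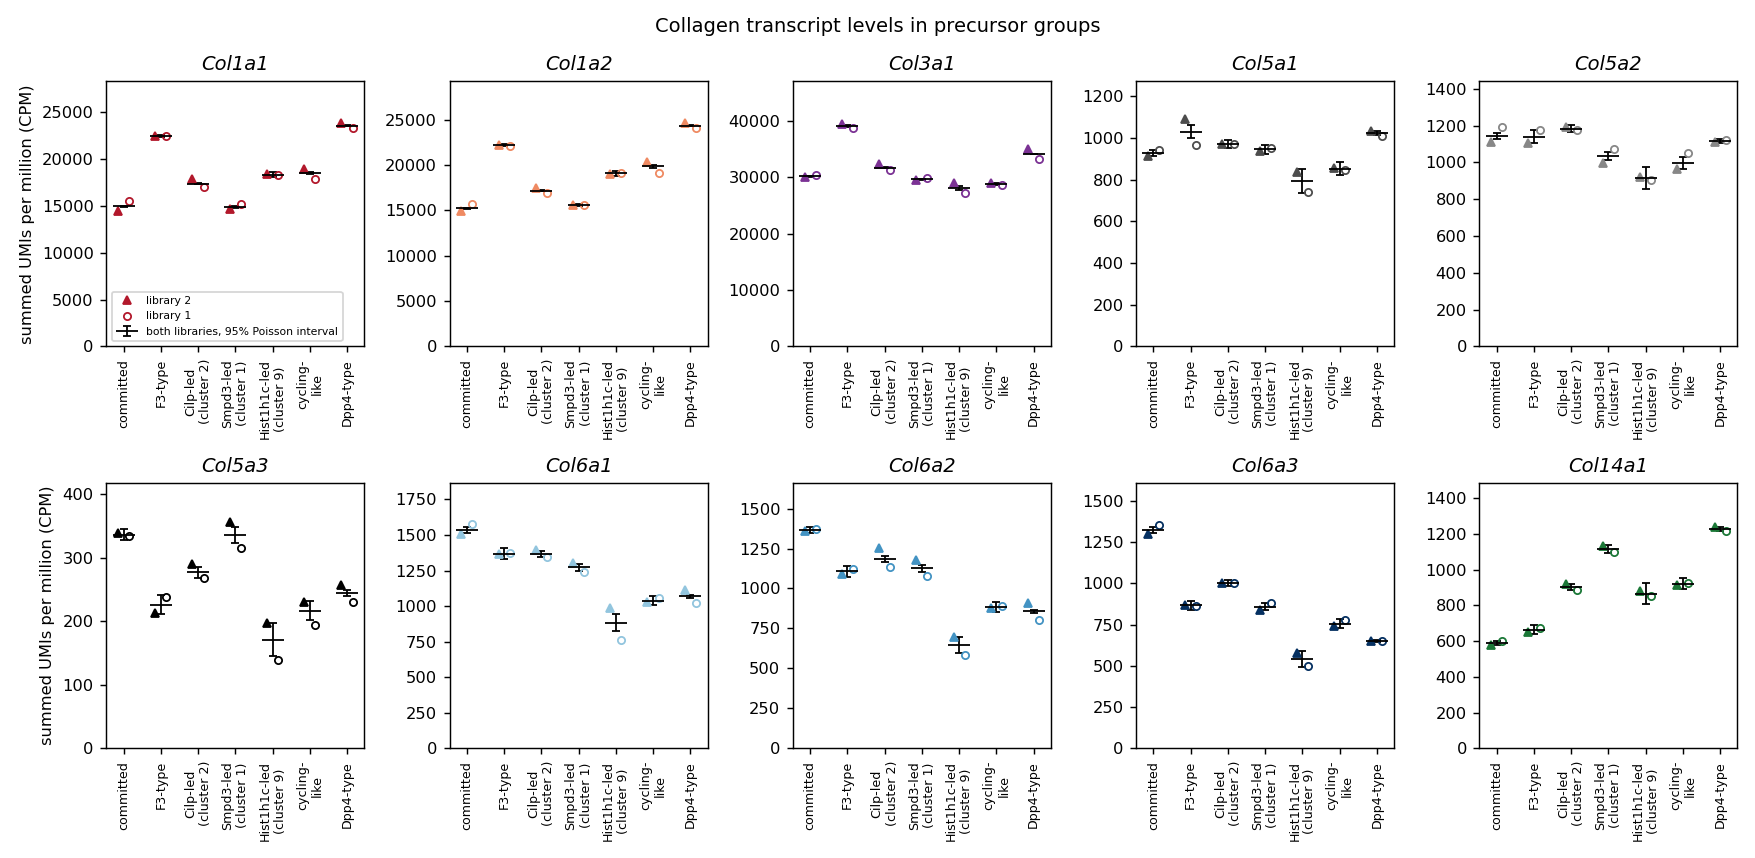
CPM (linear axes from 0) of each collagen gene in 7 groups of precursor cells; bars are the sum over both libraries with its 95% Poisson interval, filled triangles library 2 and open circles library 1. Col6a3 is highest in committed cells (1323 CPM) and Col14a1 in Dpp4-type cells (1229 CPM), while Col5a1 and Col5a2 stay within 1.30-fold over all 7 groups.

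The first comparison was between the committed and the progenitor end of the lineage. Committed cells held less type I and type XIV collagen mRNA and more type VI than Dpp4-type cells, and their type III and type V sums were within 1.5-fold of the Dpp4-type sums. Col6a3, the longest type VI chain, had 2.03 times the level (95% conditional exact interval 1.995 to 2.07) and Col6a2 1.59 times (1.57 to 1.62), while Col14a1 was at 0.480 times (0.469 to 0.491), Col1a2 at 0.626 and Col1a1 at 0.635. So 2 of the 10 genes were called higher and 3 lower, where 8.78% of the 6903 genes measured were called higher and 13.7% lower. The median log2 ratio of the 10 genes was -0.05, beside -0.14 over all genes measured.

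Among the type VI chains, Col6a3 had 1301 CPM in library 2 and 1353 CPM in library 1 in committed cells, against 652 CPM in library 2 and 650 CPM in library 1 in Dpp4-type cells. Committed cells were higher in both libraries. Col6a2 had 1362 CPM and 1371 CPM in committed cells of libraries 2 and 1, against 907 CPM and 804 CPM in Dpp4-type cells. Col6a1 had 1507 CPM and 1576 CPM in committed cells, against 1113 CPM and 1023 CPM in Dpp4-type cells, a log2 ratio of 0.52 that stayed under the 1.5-fold threshold. For all 3 chains both committed libraries lay above both Dpp4-type libraries, but the share of all genes so separated was not counted. The log2 ratio was smaller in library 2 than in library 1: 0.44 against 0.62 for Col6a1, 0.59 against 0.77 for Col6a2 and 0.995 against 1.06 for Col6a3. Summed, type VI had 4226 CPM in committed cells and 2578 CPM in Dpp4-type cells.

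The type I chains went the other way together. Col1a1 had 14474 CPM in library 2 and 15544 CPM in library 1 in committed cells, against 23782 CPM and 23246 CPM in Dpp4-type cells. Col1a2 had 14915 CPM and 15643 CPM in committed cells of libraries 2 and 1, against 24589 CPM and 24034 CPM in Dpp4-type cells. Both committed libraries lay well below both Dpp4-type libraries. In library 1 alone the log2 ratio of Col1a1 was -0.58, just inside the threshold, and in library 2 it was -0.72. Col3a1 had 30224 CPM in committed cells and 34155 CPM in Dpp4-type cells, a log2 ratio of -0.18, closer to 0 than those of the type I chains.

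The type V chains, which start fibrils, split by chain. Col5a3, the least abundant of them, had 338 CPM and 333 CPM in committed cells of libraries 2 and 1, against 257 CPM and 231 CPM in Dpp4-type cells, a log2 ratio of 0.46 (0.41 to 0.51). Col5a1 had 928 CPM in committed cells and 1024 CPM in Dpp4-type cells (log2 ratio -0.14), and Col5a2 had 1145 CPM and 1116 CPM in these classes (log2 ratio 0.04). The Col5a2 log2 ratio was -0.01 in library 2 and 0.09 in library 1. The type V sum was 2408 CPM in committed cells and 2384 CPM in Dpp4-type cells.

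Col14a1, the fibril-surface chain, had 580 CPM in library 2 and 602 CPM in library 1 in committed cells, against 1241 CPM and 1216 CPM in Dpp4-type cells. Its log2 ratio was -1.06 (-1.09 to -1.03), and the classes were far apart in both libraries. With the erythroid-like mean per cell subtracted from each class, an alternative chosen after seeing the data, its log2 ratio was -2.20, and without the cell of most collagen UMIs in that mean it was -1.52. Those 18 cells are all from library 1, and their mean was subtracted from both libraries. In these same subtractions Col6a3 was at 1.25 and 1.17, and Col6a1 passed 1.5-fold at 0.63 and 0.60.

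Scaling moved these values by a nearly constant amount. TMM scaling raised the log2 ratio of all genes by 0.11 and the median-of-ratios size factors by 0.12, and the split of all calls was 748 higher and 696 lower with TMM and 766 higher and 684 lower with size factors, beside 606 higher and 949 lower by total count. With TMM, Col1a1 was at -0.54 and Col1a2 at -0.56, both short of 1.5-fold, and Col6a1 at 0.63 passed it, while Col14a1 stayed at -0.95 and Col6a3 at 1.13. Other marker lists differed between the classes too. The 8 adipocyte markers summed to 49.6 CPM in committed cells and 6.20 CPM in Dpp4-type cells, and the 8 mural markers to 52.0 CPM and 91.9 CPM with none at 0. The 6 tendon or cartilage markers summed to 156 CPM and 38.2 CPM, with Acan and Chad at 0 in both classes and Comp at 0 in committed cells. In the committed cluster only Car3, Notch3 and Sox9, 1 marker of each list, were raised over all other cells. Of the mural list, Kcnj8 was raised in 1 of the 2 Dpp4-type clusters. Median depth was 11136 UMIs per committed cell and 13285 per Dpp4-type cell. The part of these in the collagen differences was not tested.

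**Figure D2:**
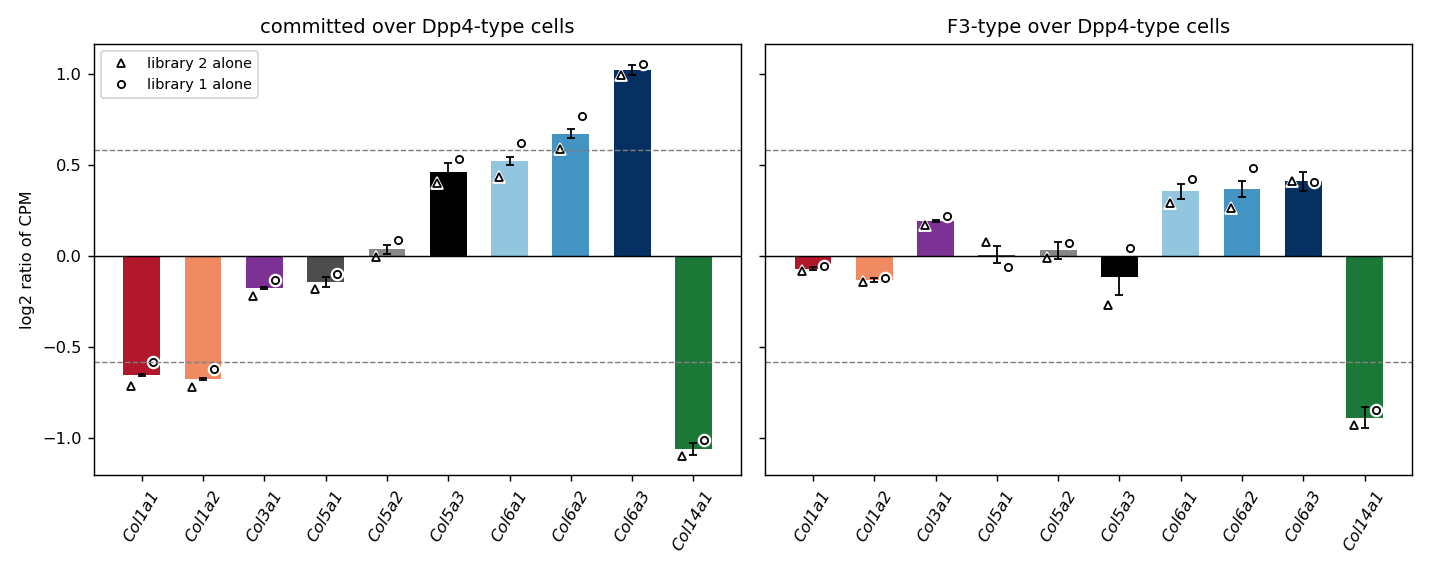
Log2 ratio of CPM for the 10 collagen genes, committed over Dpp4-type cells (left) and F3-type over Dpp4-type cells (right); bars are both libraries with the 95% conditional exact interval, triangles library 2 alone, circles library 1 alone, and dashed lines 1.5-fold. On the left the bars run from -1.06 for Col14a1 to 1.02 for Col6a3, and on the right only Col14a1 (-0.89) passes the dashed lines.

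F3-type cells, a stromal-like class named after the gene of coagulation factor III, kept type I collagen mRNA near the Dpp4-type level but held less Col14a1. Col14a1 had 653 CPM in library 2 and 676 CPM in library 1 in F3-type cells, against 1241 CPM and 1216 CPM in Dpp4-type cells, or 0.540 times the level (0.519 to 0.562). With the erythroid-like mean subtracted it was at 0.301 times, and at 0.421 times without the cell of most collagen UMIs in that mean. It was the only one of the 10 genes past 1.5-fold, with 0 higher and 1 lower, where 10.3% of 7073 genes were higher and 9.57% lower. Col3a1 had 39042 CPM in F3-type cells, the highest of the 7 precursor groups, and 34155 CPM in Dpp4-type cells. The type VI chains were higher by similar amounts, with log2 ratios of 0.36 for Col6a1, 0.37 for Col6a2 and 0.41 for Col6a3. Col5a3 was at -0.12 over both libraries, with -0.27 from library 2 alone and 0.04 from library 1 alone, so its direction was not the same in both.

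Among the unnamed clusters, cluster 2 stood out by Col6a3 and cluster 1 by the type I chains. Cluster 2, led by Cilp and Eln, had 1002 CPM of Col6a3, a log2 ratio of 0.62 that was the only call among the 10 genes in that cluster (6.26% of 6954 genes were higher and 5.09% lower); the ratio was 0.59 under both other scalings. Its Col14a1 was at 902 CPM, a log2 ratio of -0.45. Cluster 1, led by Smpd3, had type I levels like those of committed cells, 14889 CPM of Col1a1 and 15576 CPM of Col1a2, with log2 ratios of -0.66 and -0.64 (2 genes lower and 0 higher, where 2.33% of 6869 genes were lower and 3.54% higher). Its Col14a1, in contrast, had 1115 CPM, a log2 ratio of only -0.14. The same cluster had 335 CPM of Col5a3, beside 336 CPM in committed cells. In cluster 9 all 10 genes had negative log2 ratios, from -0.53 for Col5a3 to -0.27 for Col6a3, and none passed 1.5-fold, where 17.6% of 7216 genes were higher and 5.13% lower. TMM scaling lowered every gene of cluster 9 by 0.21, and Col5a3, Col6a2 and Col14a1 then passed. These comparisons share the Dpp4-type cells.

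The order of the groups differed from chain to chain. For Col6a3 it ran from committed cells over cluster 2, F3-type cells, cluster 1, cycling-like cells and Dpp4-type cells to cluster 9 at 540 CPM. F3-type cells (870 CPM in library 2 and 861 CPM in library 1) and cluster 1 (836 CPM and 882 CPM) could not be ordered, because their libraries overlapped. For Col14a1 it ran from Dpp4-type cells over cluster 1, cycling-like cells, cluster 2, cluster 9 and F3-type cells to committed cells at 590 CPM. Cycling-like cells (917 CPM and 928 CPM) and cluster 2 (922 CPM and 889 CPM) overlapped there. The highest group was 2.45 times the lowest for Col6a3 and 2.09 times for Col14a1, but 1.39 times for Col3a1 and 1.30 times for both Col5a1 and Col5a2.

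Ratios between chains remove the total count from the comparison. The ratio of Col1a1 to Col1a2 UMIs, which encode the α1 and α2 chains of the type I molecule, was close to 1 in these classes: 0.981 in committed cells (95% exact interval 0.975 to 0.986), 1.01 in F3-type cells and 0.967 in Dpp4-type cells (0.964 to 0.970). In libraries 2 and 1 it was 0.970 and 0.994 in committed cells, against 0.967 in both libraries of Dpp4-type cells, so committed and Dpp4-type cells differed by no more than the libraries of committed cells did. The type III to type I balance moved more. Col3a1 had 2.02 UMIs for each Col1a1 UMI in committed cells, 1.74 in F3-type cells and 1.45 in Dpp4-type cells. The libraries gave 2.08 and 1.96 in committed cells and 1.47 and 1.43 in Dpp4-type cells, which did not overlap.

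In type VI the third chain stood higher relative to the other two in committed cells. Col6a3 had 0.861 UMIs for each Col6a1 UMI in committed cells (0.845 to 0.878), 0.633 in F3-type cells and 0.609 in Dpp4-type cells (0.599 to 0.618). In libraries 2 and 1 this ratio was 0.863 and 0.859 in committed cells, against 0.586 and 0.635 in Dpp4-type cells. Col6a1 to Col6a2 went the other way, at 1.12 in committed cells, 1.24 in F3-type cells and 1.25 in Dpp4-type cells. The UMI counts of the 3 chains were thus closer to equal in committed cells than in Dpp4-type cells. In type V, Col5a3 had 0.363 UMIs for each Col5a1 UMI in committed cells, 0.219 in F3-type cells and 0.239 in Dpp4-type cells, and Col5a1 to Col5a2 was 0.810, 0.903 and 0.917 in these classes. UMI ratios are ratios of captured 3′ ends and not of protein chains.

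A graded view did not rest on cluster borders. All 6771 precursors were ordered by their mean committed marker level minus their mean Dpp4-type marker level, which hold no collagen, and cut into 10 bins of 677 or 678 cells. Col6a3 had 582, 632, 652, 685, 735, 849, 970, 1053, 1221 and 1404 CPM in bins 1 to 10, higher in each bin than in the one before. The last bin was 2.41 times the first, and in each library alone 2.46 times (library 2) and 2.36 times (library 1). Col6a1 and Col6a2 were also higher in each successive bin, with the last bin at 1.54 and 1.71 times the first. Col14a1 had 1214, 1214, 1208, 1238, 1187, 1098, 889, 710, 631 and 501 CPM. It stayed between 1208 and 1238 CPM over the first 4 bins and was lower in each bin after that. Col1a1 peaked in bin 2 at 23231 CPM and was lowest in bin 10 at 14080 CPM. Col5a1, Col5a2 and Col3a1 ended at 0.926, 1.03 and 0.890 times their first bin.

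Composition changed along the same bins. Bin 1 held 659 Dpp4-type cells of 678, bin 6 held 169 Dpp4-type, 228 cluster 1 and 222 cluster 2 cells, and bin 10 held 532 committed cells of 677. Median depth was 13630 UMIs per cell in bin 1 and 10952 in bin 10. The Col3a1 to Col1a1 ratio was 1.43 in bin 1 and 2.04 in bin 10, and the Col6a3 to Col6a1 ratio was 0.580 in bin 1 and 0.909 in bin 10, neither of which uses the total count. Among non-cycling precursors the last bin was 2.42 times the first for Col6a3 and 0.414 times for Col14a1.

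**Figure D3:**
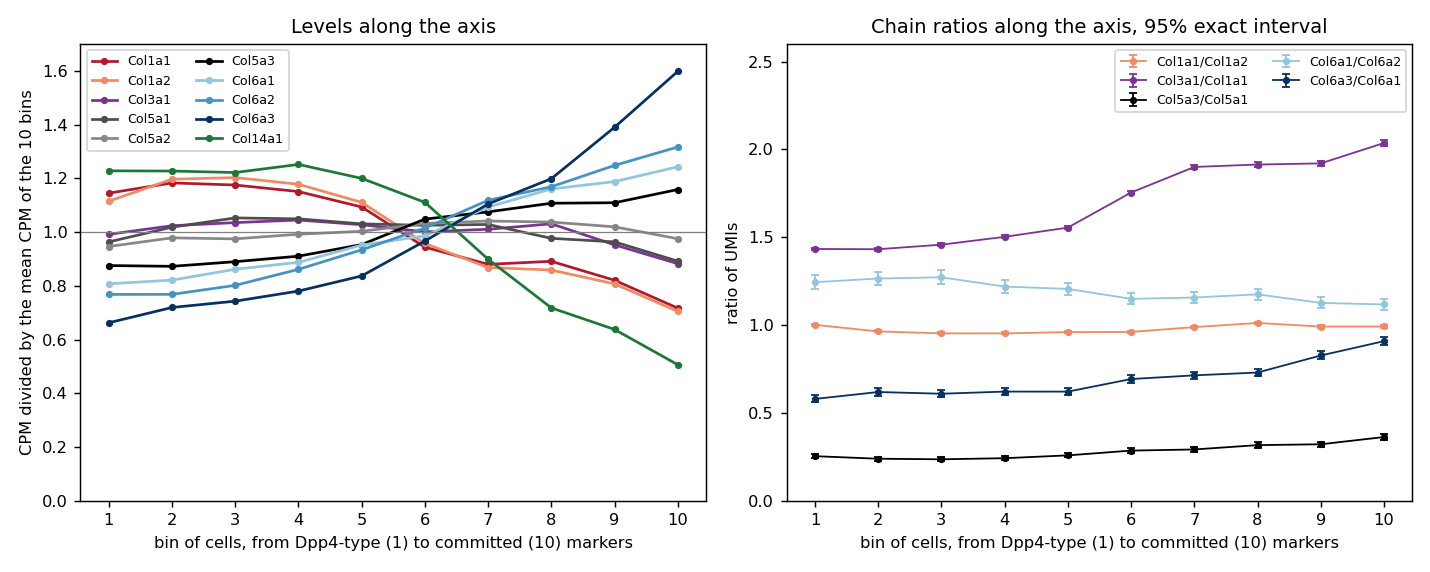
Left, CPM of each gene in 10 bins of precursor cells from Dpp4-type to committed markers, divided by the gene's mean over the bins; right, ratios of UMIs between chains in the same bins with 95% exact intervals. Col6a3 climbs over the whole axis and Col14a1 drops after bin 5, while Col1a1 to Col1a2 stays close to 1 and Col3a1 to Col1a1 goes from 1.43 in bin 1 to 2.04 in bin 10.

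Within a class the type I and III chains varied together from cell to cell. At 7470 UMIs per cell, committed cells (n = 1228) had a median of 106 Col1a1 UMIs (5th to 95th percentile 57 to 184) and Dpp4-type cells (n = 2776) a median of 169 (83 to 281). The variance of Col1a1 counts was 14.4 times their mean in committed cells and 21.3 times in Dpp4-type cells, where counting alone gives 1. Across committed and Dpp4-type cells, Pearson's r between Col1a1 and Col1a2 was 0.867 and 0.873, and between Col1a1 and Col3a1 it was 0.774 and 0.779. These are descriptions over cells of both libraries at a fixed depth. Between Col6a1 and Col6a2, whose counts are far lower, r was 0.302 in committed cells and 0.138 in Dpp4-type cells.

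Col6a3 and Col14a1 varied more between committed cells than between Dpp4-type cells. The variance of Col6a3 was 2.54 times its mean in committed cells, with 3 to 20 UMIs from the 5th to the 95th percentile, and 1.30 times in Dpp4-type cells, with 1 to 9 UMIs. For Col14a1 it was 1.67 times in committed cells and 1.35 times in Dpp4-type cells. Corrected for counting, the squared coefficient of variation was 0.156 and 0.062 for Col6a3 and 0.153 and 0.039 for Col14a1 in these classes. Type I chains did not show this: the corrected value of Col1a1 was 0.121 in committed cells and 0.116 in Dpp4-type cells, and that of Col1a2 was 0.114 and 0.118. The greater spread was not particular to Col6a3 and Col14a1. Corrected values were also higher in committed cells for Col5a2 (0.061 and 0.034), Col5a3 (0.161 and 0.127) and Col3a1 (0.058 and 0.044), with smaller differences.

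The genes whose log-normalised values followed each chain most closely over all 6771 precursors, among 2226 genes with at least 50 CPM, differed between the chains. For Col1a1 they were Col1a2 (r = 0.88), Col3a1 (0.77), the collagen-binding glycoprotein gene Sparc (0.70), Cpz (0.45) and the Dpp4-type marker Pi16 (0.38). For Col6a3 they were the basement membrane chain Col4a1 (0.50), Igfbp7 (0.44), Col4a2 (0.44), Col15a1 (0.42) and the lipoprotein lipase gene Lpl (0.41). For Col14a1 they were the fibronectin gene Fn1 (0.57), the fibrillin gene Fbn1 (0.57), Fstl1 (0.53), Mfap5 (0.50) and Marcks (0.46). For Col5a3, a sparse gene, the highest value was 0.21 (Col6a2), which is too weak to count as a finding. These values are descriptions over cells of 2 libraries.

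Most genes that modify, fold, export and cross-link collagen did not pass 1.5-fold between committed and Dpp4-type cells. Of the modifying enzymes measured, 0 of 13 were higher and 1 was lower (P4ha3, a prolyl 4-hydroxylase subunit, at 19.7 CPM in committed cells and 36.5 CPM in Dpp4-type cells), with a median log2 ratio of -0.11. None of 11 chaperone and export genes passed 1.5-fold (median -0.12). Serpinh1, the collagen chaperone HSP47, had 2303 CPM in committed cells and 2509 CPM in Dpp4-type cells. None of 4 cross-linking genes passed either (median -0.05), and Lox, lysyl oxidase, had 186 CPM and 160 CPM. Over all genes measured the median was -0.14, with 8.78% higher and 13.7% lower, so most genes of any kind did not pass 1.5-fold either.

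In propeptide processing 1 of 6 measured genes was higher and 2 were lower, where 8.78% of all genes measured were higher and 13.7% lower. A related pair in this list went opposite ways. Pcolce, which speeds the removal of the C-propeptide of fibrillar collagens, had 2766 CPM in committed cells and 1444 CPM in Dpp4-type cells (log2 ratio 0.94). Its relative Pcolce2 had 276 CPM in committed cells and 748 CPM in Dpp4-type cells (-1.44), and Bmp1, the C-proteinase, had 198 CPM and 320 CPM (-0.70). Among 6 receptor and uptake genes only Antxr2, a receptor for type VI collagen, was called, lower at 65.9 CPM in committed cells and 125 CPM in Dpp4-type cells. Beside the shares over all genes, the counts in these short lists are not read as a result about the lists. Ddr2, a fibrillar collagen receptor, had 181 CPM in committed cells and 248 CPM in Dpp4-type cells, a log2 ratio of -0.45.

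Other collagen chains were compared in the same way. Of 34 other chain genes 9 were measured, which here means at least 10 CPM in at least 1 of the 2 classes. Of these, 6 were higher and 0 lower in committed cells, with a median log2 ratio of 2.19 (over all genes 8.78% were higher and 13.7% lower). A sparse chain could enter only through the class where it was higher. The split and the median depend on this filter, and no conclusion about the chains as a set is drawn from them. Col15a1, a chain found near basement membranes, had 386 CPM in committed cells and 31.6 CPM in Dpp4-type cells, and Col4a1 had 652 CPM and 67.3 CPM. Col4a2 (log2 ratio 2.63), Col18a1 (2.24), Col27a1 (2.19) and Col12a1 (0.81) followed. Even so, the 366 CPM of Col4a2 and 386 CPM of Col15a1 in committed cells were small beside the 14936 CPM of Col1a1. In F3-type cells, under the same filter, 8 of 10 measured chains were higher and 2 lower than in Dpp4-type cells (over all genes 10.3% higher and 9.57% lower). Col18a1 led with 67.6 CPM in F3-type cells and 7.32 CPM in Dpp4-type cells, so it passed the filter only through F3-type cells.

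**Figure D4:**
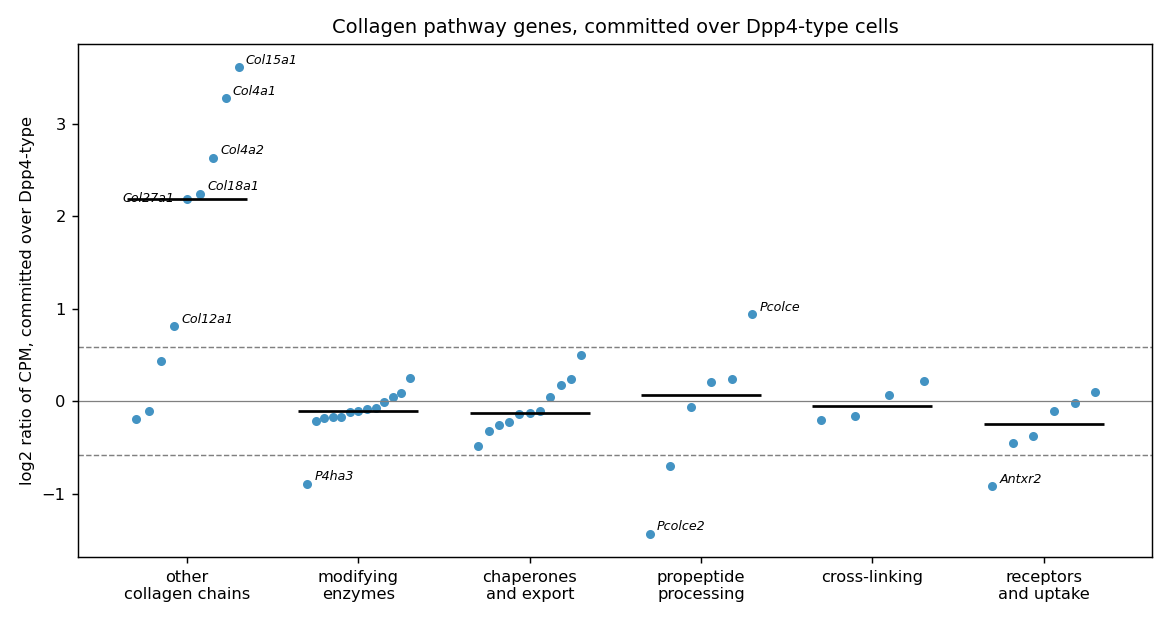
Log2 ratio of CPM, committed over Dpp4-type cells, for each measured gene of 6 collagen lists; points are genes ordered within a list, black lines list medians and dashed lines 1.5-fold. Other collagen chains reach 3.61 (Col15a1), whereas the modifying, chaperone and cross-linking genes lie within 1.5-fold apart from P4ha3.

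Cycling precursors held slightly lower CPM of collagen mRNA than non-cycling ones. Cells were taken as cycling from 2 UMIs upward of the proliferation genes Mki67 or Top2a, a rule that uses no collagen, which gave 202 cycling and 6569 non-cycling precursors. All 10 log2 ratios were below 0, from -0.31 for Col5a3 to -0.03 for Col1a2, and none was called, where 14.2% of 7379 genes were higher and 1.9% lower. The median over the 10 genes was -0.19, against 0.11 over all genes. CPM is a share of the total count. Per cell, the cycling-like cluster, a set of 241 cells other than that of the UMI rule, held a mean of 1138 UMIs of the 10 genes. This mean was 983 over all precursors, 1144 in Dpp4-type cells and 751 in committed cells, so the cluster was not above every class. Col3a1 had 29147 CPM in cycling cells and 32716 CPM in non-cycling cells, and Col6a1 had 1074 CPM and 1235 CPM. Library by library, Col1a2 had 20547 CPM in library 2 and 19070 CPM in library 1 in cycling cells, against 20566 CPM and 20258 CPM in non-cycling cells, so the classes were not separated in library 2.

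The type I values differed along the lineage. In the most committed of 3 equal parts of the axis (67 cycling cells) Col1a1 was at -0.41 and Col1a2 at -0.29, whereas in the most Dpp4-type part (76 cycling cells) Col1a1 was at -0.03 and Col1a2 at 0.05. This split was chosen after seeing the data, and the difference between the parts was not tested. Cluster 3, the cycling-like cluster, held 166 cells that met the UMI rule and 75 that did not. Between these the ratios ran from -0.28 for Col14a1 to 0.07 for Col6a1. The 75 cells count as non-cycling in the main comparison although they lie in the cycling-like cluster. Most of cluster 9 also counts as non-cycling, as 5 of its 77 cells met the rule. Its 14 cycling markers summed to 198 CPM, against 66.5 CPM in Dpp4-type cells. TMM scaling lowered all ratios by 0.15 and size factors by 0.14, which put the 10 genes between -0.46 and -0.18 with TMM; the calls over all genes were 1049 higher and 140 lower by total count, 763 higher and 332 lower with TMM and 774 higher and 319 lower with size factors. Cycling cells had a median of 16121 UMIs, against 12440 in non-cycling cells, and the erythroid markers summed to 2407 CPM in the cycling-like cluster, against 422 CPM in Dpp4-type cells. The part of these in the ratios was not tested. The ratio of Col1a1 to Col1a2 was 0.921 in cycling cells (0.911 to 0.931) and 0.976 in non-cycling cells (0.974 to 0.979), and by library 0.913 and 0.935 in cycling cells against 0.974 and 0.979 in non-cycling cells (library 2, then library 1).

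Between the 2 libraries no collagen gene differed by 1.5-fold. Over all precursors the log2 ratio of library 2 over library 1 ran from -0.04 for Col5a2 to 0.12 for Col5a3, and none of the 10 was called, where 0.428% of 6777 genes were higher and 0.251% lower. Col3a1 had 32995 CPM in library 2 and 32140 CPM in library 1, and Col6a3 had 855 CPM and 863 CPM. The side of 0 on which the intervals lay differed between classes. The share of all genes whose intervals leave out 0 was not counted, so these counts are no result about the collagen genes. In Dpp4-type cells 8 of 10 intervals lay above 0, the highest ratio being 0.18 for Col6a2, and none of the 10 was called (0.28% of 6786 genes were higher and 0.251% lower). In committed cells 6 of 10 intervals lay below 0, with Col5a2 and Col1a1 lowest at -0.10, and none was called (0.866% of 6465 genes were higher and 0.665% lower). In F3-type cells 7 intervals held 0 and none was called (4.68% of 6930 genes were higher and 4.83% lower). Each interval covers counting error only, and the spread between animals or captures is unknown, so an offset between libraries cannot be told apart from an offset between captures. Of the pathway genes only Col12a1 was called, lower at 33.4 CPM in library 2 and 50.3 CPM in library 1. The erythroid markers summed to 20.2 CPM in precursors of library 2 and 1054 CPM in those of library 1, and their part in the collagen values was not tested.

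**Figure D5:**
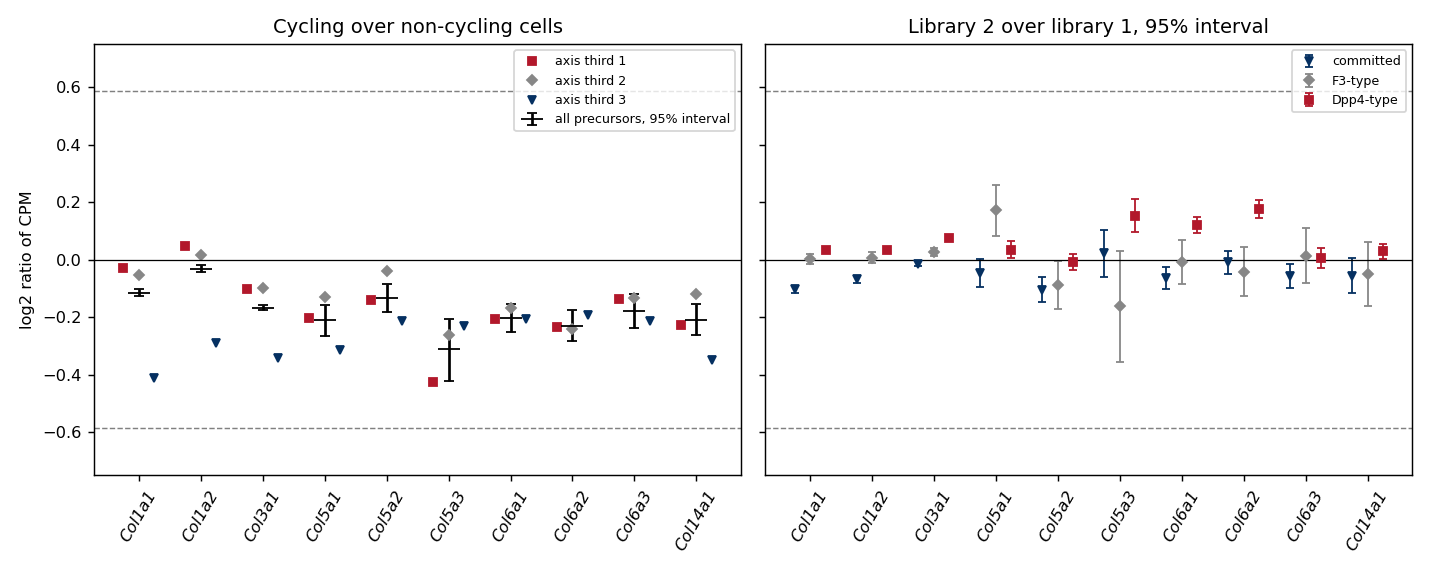
Log2 ratio of CPM for the 10 collagen genes, cycling over non-cycling precursors (left; black bars all precursors with the 95% conditional exact interval, symbols 3 equal parts of the axis numbered 1, Dpp4-type, to 3, committed) and library 2 over library 1 within 3 classes (right; 95% intervals). All points lie inside the dashed 1.5-fold lines, and the largest in size on the left are Col5a3 in part 1 (-0.42) and Col1a1 in part 3 (-0.41).

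Upstream sequence was available for 7 of the 10 genes from RefSeq (GRCm38.p6). Col3a1, the gene with the highest level, and Col6a3, the one most raised in committed cells, are shown over the 250 bases before the start on their own strand, 5′ to 3′, with any match to 4 searched motifs in capitals.
Col3a1, chr1:45311288-45311537, plus strand: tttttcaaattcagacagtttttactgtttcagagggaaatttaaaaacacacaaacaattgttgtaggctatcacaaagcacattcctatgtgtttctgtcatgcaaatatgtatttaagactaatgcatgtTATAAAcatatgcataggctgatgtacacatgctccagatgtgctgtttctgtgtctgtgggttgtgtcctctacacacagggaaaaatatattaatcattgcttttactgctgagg
Col6a3, chr1:90843972-90844221, minus strand: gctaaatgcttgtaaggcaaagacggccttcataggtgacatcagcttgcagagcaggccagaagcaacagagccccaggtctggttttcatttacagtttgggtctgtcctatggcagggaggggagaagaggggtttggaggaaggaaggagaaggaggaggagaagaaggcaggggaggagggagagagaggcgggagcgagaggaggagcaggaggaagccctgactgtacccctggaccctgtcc
Each motif was searched on both strands, and its background is the share of 32851 promoter windows of the same length that hold it. TATAAA occurred in 12.4% of these windows. The letters CCAAT occurred in 33.8%. The GC box core GGGCGG occurred in 32.7%. The E-box CACGTG occurred in 6.02%. Col3a1 held TATAAA 117 bases before the start and had a GC content of 35.2%. Col6a3 held none of the 4 in this window, with a GC content of 57.2%. Matches are letters in a window and not binding sites.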

How the data were processed

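The deposited matrix holds raw UMI counts per gene and barcode for 6905 barcodes. Per the submitters' processing notes, Cell Ranger (no version), Seurat 3.0.1 and the mm10 build were used, with roles not stated. Per the labels' protocols, permeable cells were removed with a dye. The suffix of a barcode parts the libraries, and no label ties it to a diet.

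Cells with at least 500 genes and at most 10% mitochondrial UMIs were kept (6885). They were clustered with scanpy 1.11.5 (2000 variable genes, 30 components, 15 neighbours, Leiden resolution 0.5) without the collagen lists, mitochondrial or ribosomal genes. A cluster was named where at least 3 markers and 50% of a list reached 20 CPM and 1.5-fold over other cells, thresholds set after the data were seen. A doublet caller marked 10 cells (0.145%), so it did not work, and doublets were kept. Counts were summed per class, with exact Poisson, conditional exact and Clopper-Pearson 95% intervals (scipy 1.17.1). These cover counting error only. TMM (edgeR 4.0.16) and DESeq2 1.42.0 size factors served as scaling alternatives, and no differential test was run with them. The sums and intervals were tested on simulated Poisson counts. These lack the spread between cells seen in the data, so the test checks the calculation only.

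All 10 collagen genes are described. Up to 10 list genes with at least 10 CPM and the largest log2 ratios are named per comparison, as are the 5 genes most like 4 of the chains and the leading genes of each cluster. Bmp1, Ddr2, Lox and Serpinh1 fall outside this rule and were chosen after their values were seen. The members, lists and comparisons were chosen with earlier results of these data known, and no list is independent evidence. Alternatives were other scalings, thresholds, filters, clusterings, thinning and each library alone. One marker gene, and the values that rest on it, are not reported here.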

Additional observations from a re-analysis of the deposited data

How the results depend on the processing

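Of the committed over Dpp4-type calls (2 higher and 3 lower among the 10 genes), TMM scaling gave 3 higher and 1 lower, median-of-ratios scaling gave 4 higher and 1 lower, a 2-fold threshold gave 1 higher and 1 lower, and clustering with the collagen genes among the variable genes gave 1 higher. The scalings shift every gene by one amount, by construction; for the clustering the cause was not tested. At 2-fold the F3-type comparison had 0 lower in place of 1. The shares of all genes called at 2-fold or under that clustering are not given, nor is the lower count under that clustering. These counts are therefore not read as a result about the collagen genes. No called gene changed sign under the alternatives run. Of genes not called, 1 of 5 changed sign under at least 1 alternative in committed over Dpp4-type (Col5a2), 3 of 9 in F3-type over Dpp4-type (Col5a1, Col5a2 and Col5a3), 2 of 10 in cycling over non-cycling (Col1a2 and Col6a1) and 0 of 10 between libraries. No paired analysis was possible because each condition has 1 library and no label pairs them. The main limits are 1 library per condition, no link from library to diet, collagen UMIs in cells that should have none, and class borders set by clustering.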
